A study of Homo sapiens and Mus musculus with 22 samples.

Results

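H69M is a human small cell lung cancer (SCLC) line derived from NCI-H69 (H69) by a published procedure. Its cells that stained high for PD-L1 were here compared with H69M that was not sorted. The comparison used 6 of the 22 libraries of the series, 3 of the PD-L1 high fraction and 3 of H69M labelled as not sorted, and covered all 15445 genes with enough reads of 25435 counted. Both groups are labelled high for MHC class I. The PD-L1 low fraction of H69M, whose MHC class I status is given as low or negative, supplied 3 further libraries whose levels are set beside the others. The 3 H69 libraries entered only the filter on low counts, the scaling, the average level of each gene and the estimate of spread. No drug, dose or gene change is given for any of these groups, and the labels do not say whether the 3 libraries of a group came from separate cultures. The p-values therefore reflect only how far these libraries differ among themselves, which may be technical spread. The question was which genes the PD-L1 high cells enrich over the mixed culture.

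PD-L1, encoded by CD274, is a surface ligand that restrains T cells through the receptor PD-1. MHC class I presents peptides from inside the cell to cytotoxic T cells, and interferons raise the expression of both. Most SCLC is neuroendocrine, driven by factors such as INSM1 and poor in MHC class I. Non-neuroendocrine SCLC cells lack that program, express REST, YAP1, AXL and VIM, adhere to plastic and can carry more MHC class I.

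Total counts per library were 19905007 to 25806038 in unsorted H69M and 14752176 to 21533233 in the PD-L1 high fraction. No library stood apart from its group and no replicates were duplicates. Levels below are means ± SD, over 3 libraries, of CPM (read counts relative to library size, with TMM scaling), and log2 fold changes (PD-L1 high minus unsorted) are given ± SE. In these bulk libraries fewer cells of a type and less RNA per cell cannot be told apart. The PD-L1 high cells went through a sort and the unsorted culture did not, so the handling in the sort and the selection for PD-L1 cannot be told apart either. Any difference of culture or time between the groups was not tested.

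CD274, on whose product the cells were sorted, checks the labels and is no finding. It was at 4.85, 3.73 and 3.48 CPM in the unsorted libraries and at 12.9, 13.4 and 13.7 CPM in the PD-L1 high libraries. The PD-L1 low libraries averaged 0.265 CPM, so the order of the 3 groups matched their labels.

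The genes that separated the groups most included many that interferon induces. For 2 of the MHC class I genes and 1 of the interferon-stimulated genes the 250 bases before the RefSeq start (GRCh38.p14) are shown, 5′ to 3′ on the strand of the gene, because each holds the core of the interferon-stimulated response element, the sequence bound by the interferon-activated complex that contains STAT2 and IRF9. Capitals mark matches to GAAA followed, after any 2 bases, by GAAA, searched on both strands, and in B2M and TAP1 the 2 matches overlap. In TAP1 they lie on the opposite strand. B2M is at chr15:44711267-44711516 on the plus strand, TAP1 (the first of its listed starts) at chr6:32853705-32853954 and IFITM3 at chr11:320861-321110, both on the minus strand. IFITM3 was chosen after its values were seen.
B2M: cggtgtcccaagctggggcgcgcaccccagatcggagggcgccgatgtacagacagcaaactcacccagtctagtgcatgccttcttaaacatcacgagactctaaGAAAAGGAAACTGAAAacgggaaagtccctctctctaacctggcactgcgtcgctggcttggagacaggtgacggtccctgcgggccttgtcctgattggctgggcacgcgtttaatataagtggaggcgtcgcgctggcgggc
TAP1: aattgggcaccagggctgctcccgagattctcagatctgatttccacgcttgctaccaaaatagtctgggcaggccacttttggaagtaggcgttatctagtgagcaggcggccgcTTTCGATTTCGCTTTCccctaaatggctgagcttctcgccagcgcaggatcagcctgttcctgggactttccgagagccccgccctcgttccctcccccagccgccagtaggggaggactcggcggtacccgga
IFITM3: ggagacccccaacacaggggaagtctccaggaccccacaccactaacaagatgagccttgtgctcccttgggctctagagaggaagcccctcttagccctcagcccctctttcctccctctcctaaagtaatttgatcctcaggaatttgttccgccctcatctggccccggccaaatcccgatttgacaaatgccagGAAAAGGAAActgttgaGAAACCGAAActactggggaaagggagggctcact

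Among all 35116 RefSeq promoters of 300 bases (250 before to 50 after a start), 3.57% held this core. It was present in 32 of the 48 promoters (66.7%) matched to 35 of the 42 tested interferon-stimulated genes, and in 11 of the 28 (39.3%) matched to 18 of the 22 MHC class I genes. The AP-1 motif TGANTCA was in 7.71% of all promoters and in 10.4% and 3.57% of those of the same lists, and the TEAD motif GGAATG was in 14% of all and in 10.4% and 14.3%. The first list is made of genes known to respond to interferon, so its share is no result of this comparison. Windows of HLA-B, HLA-C, PSMB9 and another TAP1 start held no match to the core. These matches describe the letters in the windows and show no binding. Shares were given only where at least 80% of a set had a matched promoter. That left out the genes called at least 2-fold higher (73.6% matched) and lower (69.4%) and the mesenchymal (75%), YAP and TAZ (72.7%) and neuroendocrine (76%) lists.

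Most of the transcriptome differed between the PD-L1 high cells and unsorted H69M. Of 15445 genes tested, 10873 (70.4%) were called at an adjusted p under 0.05 by edgeR's quasi-likelihood test with Benjamini-Hochberg adjustment. In the PD-L1 high cells 5838 genes (37.8%) were higher and 5035 (32.6%) lower. A fold of at least 2 was reached by 2318 higher genes, 15% of those tested, and by 1313 lower genes, 8.5%. The large differences lay mainly upward, with 866 genes at least 4-fold higher against 140 lower, and 178 at least 8-fold higher against 11 lower. The median log2 fold change over all tested genes was 0.03, and with library totals in place of TMM it was -0.05, which turned the split of calls from 53.7% to 46.2% higher. The 3 values of the groups did not overlap for 11383 genes (73.7%), so a share of called members near these percentages says little about a list.

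**Figure D1:**
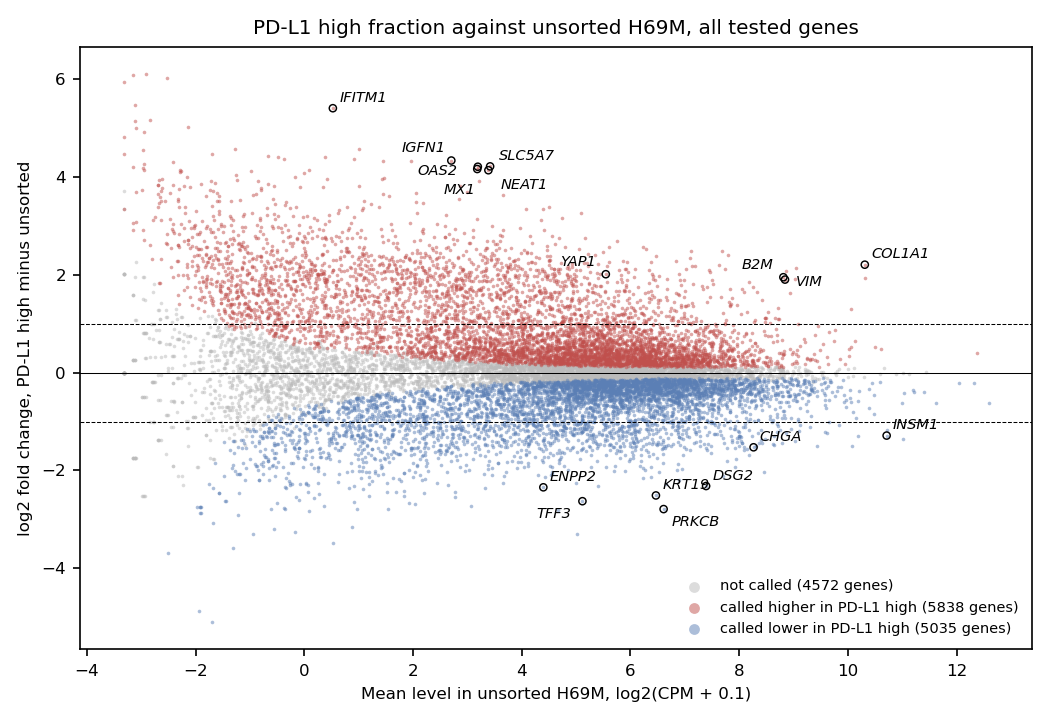
Log2 fold change of PD-L1 high minus unsorted H69M (y axis) against the mean level in unsorted H69M as log2(CPM + 0.1) (x axis) for all 15445 tested genes. Red points were called higher, blue lower and grey neither; dashed lines mark a 2-fold difference, and the interferon-stimulated genes OAS2, MX1 and IFITM1 stand among the highest points while the epithelial genes KRT19 and DSG2 lie near the lower edge.

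Rises and falls were ranked among called genes with groups that do not overlap and an average level, over all 12 libraries, at or above the median. The 10 largest rises were IGFN1, SLC5A7, OAS2, MX1, NEAT1, IFI44L, EDNRA, IFITM3, NEFL and ACTC1, with log2 fold changes of 4.34, 4.22, 4.21, 4.17, 4.14, 3.92, 3.63, 3.39, 3.35 and 3.34. Some genes below that level rose more, IFITM1 (5.41) and BST2 (4.57) among them. OAS2, MX1, IFI44L and IFITM3 are interferon-stimulated antiviral genes. IGFN1 was at 6.02, 6.12 and 7.12 CPM in the unsorted libraries and at 104, 139 and 151 CPM in PD-L1 high, a 20.3-fold difference. SLC5A7, the high-affinity choline transporter of cholinergic neurons, was at 11.4, 9.60 and 10.7 against 201, 194 and 199 CPM, and EDNRA, an endothelin receptor, at 12.8, 12.2 and 12.3 against 167, 149.9 and 145 CPM. The separation of the groups was a condition of the ranking, and SLC5A7 varied little within the PD-L1 high group. NEAT1, a nuclear long noncoding RNA, was the most variable of the 10, at 151, 177 and 225 CPM in PD-L1 high against 10.7, 9.21 and 11.2 CPM in unsorted cells (log2 fold change 4.14 ± 0.31, adjusted p = 2.36e-10, edgeR). NEFL, a neurofilament subunit, rose although most neuroendocrine genes fell, from 20.8 ± 2.02 to 213 ± 12.5 CPM.

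The 10 largest falls were PRKCB, TFF3, KRT19, ENPP2, DSG2, COL22A1, SCGN, ST14, HOXB5 and AP1M2, with log2 fold changes of -2.79, -2.63, -2.51, -2.35, -2.32, -2.31, -2.27, -2.19, -2.16 and -2.13. KRT19, DSG2, ST14 and AP1M2 are epithelial genes, for a keratin, a desmosomal cadherin, a membrane protease and a sorting adaptor. PRKCB, a protein kinase C gene, was at 96.6, 98.0 and 98.2 CPM in the unsorted and at 15.3, 14.0 and 12.7 CPM in the PD-L1 high libraries, 6.92-fold lower. KRT19 was at 84.9, 93.4 and 87.0 against 15.7, 15.8 and 14.9 CPM. That the groups of these genes do not overlap was a condition of the ranking. TFF3, a secreted trefoil peptide of the neuroendocrine signature, was at 34.6 ± 2.31 against 5.55 ± 0.509 CPM, and SCGN, a calcium sensor of neuroendocrine cells, at 101 ± 1.94 against 20.8 ± 1.14 CPM.

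The MHC class I pathway was higher almost throughout. Of 22 members 21 rose and none fell, 16 of them at least 2-fold, and the list's median log2 fold change was 1.96 beside 0.03 for all genes. B2M, the light chain shared by all class I molecules, was at 475, 441 and 433 CPM in the unsorted libraries and at 1848, 1687 and 1687 CPM in PD-L1 high (log2 fold change 1.95 ± 0.05, adjusted p = 1.19e-16, edgeR). Of the heavy chains, HLA-B was at 82.1, 78.4 and 74.1 against 501, 427 and 425 CPM, a 5.77-fold difference, and HLA-C rose by 2.20 ± 0.05. No library of one group reached the range of the other for any of these genes, which was also so for 73.7% of all tested genes. Reads can match more than 1 of the closely related HLA genes, and the way such reads were counted is not stated in the labels, which leaves their separate values uncertain.

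The steps that load class I rose with the chains. TAP1 and TAP2 form the transporter that carries peptides into the endoplasmic reticulum. TAP1 was at 41.8, 42.8 and 45.2 CPM in unsorted and at 194, 174 and 160 CPM in PD-L1 high cells, and TAP2 went from 29.1 ± 1.03 to 126 ± 1.30 CPM. The immunoproteasome subunit genes PSMB9 and PSMB8, whose products cut antigenic peptides, rose by 2.19 ± 0.08 and 2.22 ± 0.07. PSMB10, the other immunoproteasome subunit gene, was at 4.08 ± 1.06 and 3.66 ± 0.352 CPM (log2 fold change -0.18 ± 0.17, adjusted p = 0.370, edgeR) and was the member that passed the test in neither direction. NLRC5, the transactivator of class I genes, was at 3.55, 3.63 and 3.94 against 18.6, 19.1 and 19.6 CPM (log2 fold change 2.36 ± 0.10). Its unsorted level was close to that of the PD-L1 low fraction, 2.66 ± 0.233 CPM. The nonclassical HLA-E, a ligand of inhibitory NK cell receptors, rose by 2.34 ± 0.08. Of 10 MHC class II genes, which professional antigen-presenting cells use, 1 passed the filter on low counts: HLA-DMA, with 9 reads over the 3 unsorted and 33 over the 3 PD-L1 high libraries. With only the 2 groups compared in the filter none was called, and the number called ran from 0 to 3 over the alternatives, so no change of class II genes is read from it. CIITA, the class II transactivator, was not tested, and its reads numbered 0 over the 3 unsorted and 35 over the 3 PD-L1 high libraries.

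**Figure D2:**
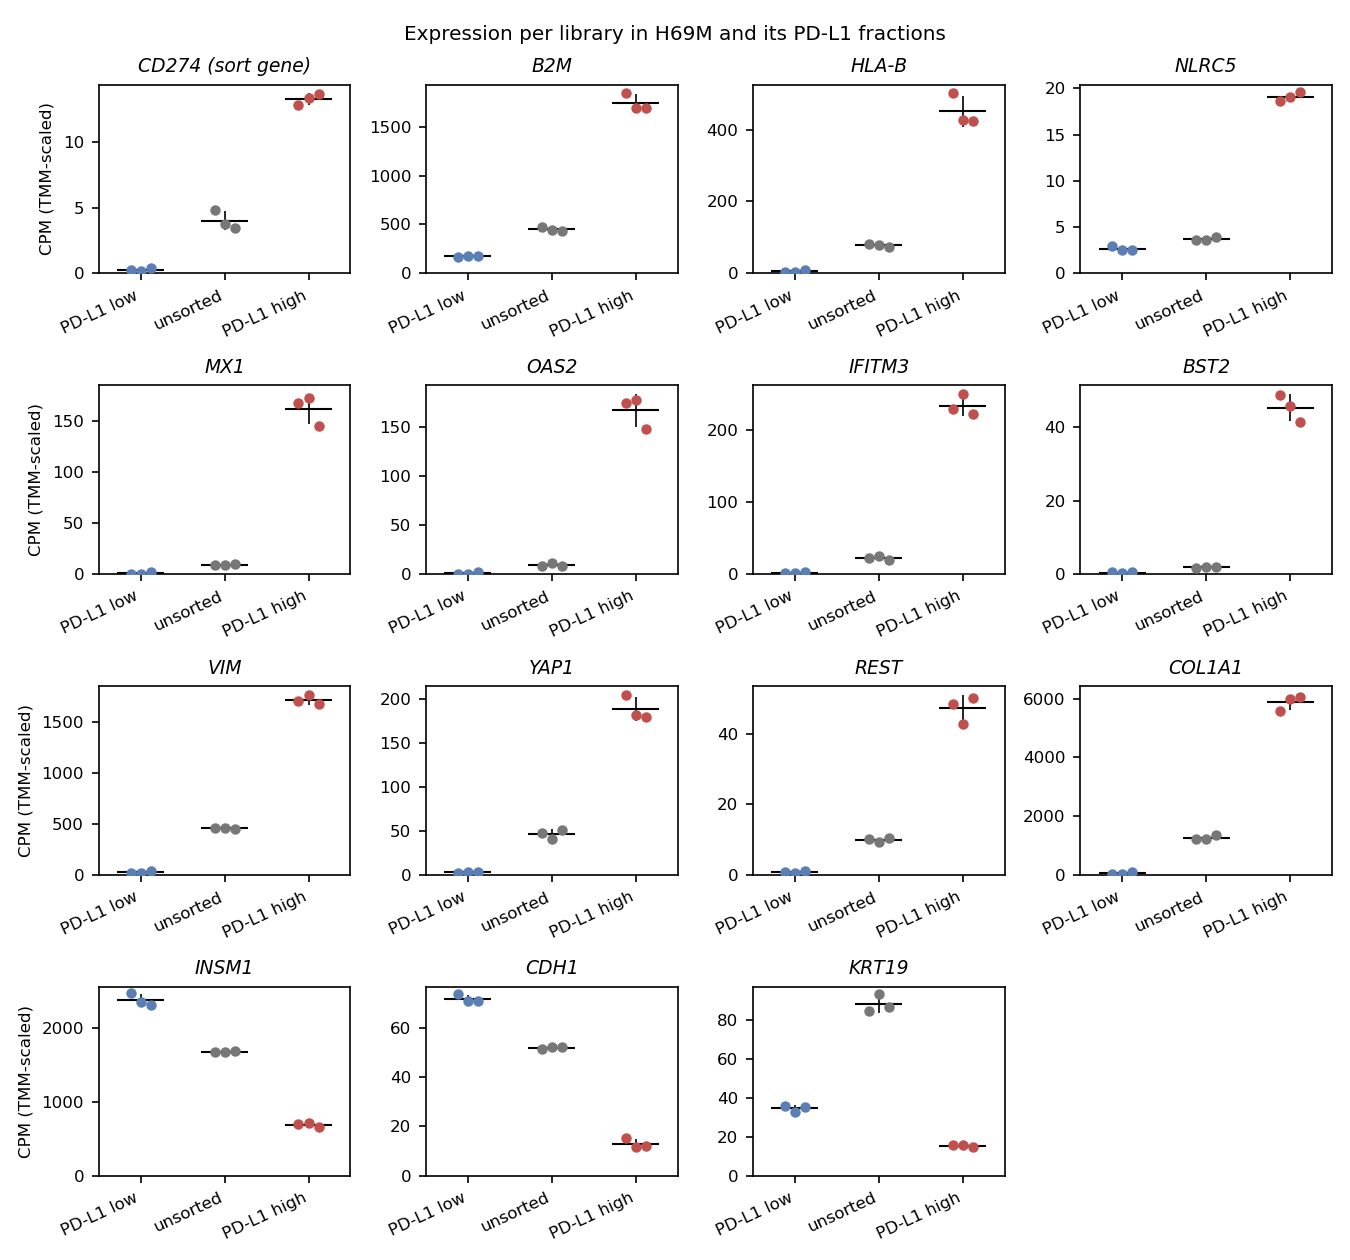
Levels of 15 genes in CPM after TMM scaling (y axes, each from 0) in the PD-L1 low, unsorted and PD-L1 high libraries of H69M. Points are libraries, horizontal bars means and vertical bars SD (n = 3 each). On these linear axes MX1, OAS2 and BST2 in the unsorted culture lie toward the PD-L1 low end, and B2M, VIM and YAP1 less so. Their unsorted means still exceeded the PD-L1 low means, with MX1 at 8.97 against 0.897 CPM, VIM at 459 against 23.7 CPM and B2M at 450 against 174 CPM. KRT19 is highest in the unsorted culture.

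Interferon-stimulated genes had the highest median difference of the lists. All 42 tested members were higher in PD-L1 high cells, each at least 2-fold, with a median log2 fold change of 3.00 and a range from 1.19 to 5.41. LGALS3BP, a secreted glycoprotein, was the least changed. MX1, a GTPase that blocks viral replication, was at 8.81, 8.66 and 9.45 CPM in the unsorted libraries and at 167, 172 and 145 CPM in PD-L1 high (18.0-fold, adjusted p = 6.44e-15, edgeR). OAS2, which makes the 2′,5′-oligoadenylates that activate RNase L, was at 7.78, 10.8 and 8.49 against 175, 178 and 148 CPM. IFITM1, a membrane protein that hinders viral entry, was at 0.899, 2.24 and 0.880 against 60.9, 57.3 and 46.6 CPM. In each of these genes the third PD-L1 high library was the lowest of its group and still far above every unsorted library. BST2 (tetherin), which retains budding virus at the cell surface, rose 23.7-fold from 1.91 ± 0.137 CPM, and IFI27 rose 20.02-fold. IFITM1, IFITM2 and IFITM3 are close relatives that can share reads, so the split between them is uncertain.

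Genes of interferon signalling itself were also mostly higher. Of 18 interferon signalling genes 16 were higher and none lower (1 with library totals in place of TMM), with a median log2 fold change of 0.91. STAT2, a transcription factor of the type I response, rose by 1.74 ± 0.07 and IRF9, the DNA-binding partner in its complex, by 2.09 ± 0.09. The kinase gene JAK2 rose by 1.46 and the feedback inhibitor genes SOCS1 and SOCS3 by 1.61 and 1.79, whereas the receptor genes IFNAR1 and IFNGR1 rose by 0.46 and 0.81. IFNGR1 was chosen after its values were seen. IRF3 (log2 fold change 0.03, adjusted p = 0.685) and USP18, a brake on the type I receptor, did not pass the test by edgeR. USP18 was at 34.6 ± 0.725 and 32.4 ± 2.93 CPM (adjusted p = 0.286, and 0.0326 with library totals) and shares sequence with a near copy, so its count is uncertain. IRF1, a target of interferon gamma, rose from 13.6 ± 0.389 to 44.0 ± 1.52 CPM and was at 32.7 ± 3.95 CPM in the PD-L1 low fraction, so both sorted fractions were above the unsorted culture.

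Sensors of foreign nucleic acid were higher for 12 of 14 tested genes and lower for none, with a median log2 fold change of 1.17. IFI16, a DNA sensor, was at 11.5, 11.5 and 11.8 against 70.0, 77.7 and 68.4 CPM. TMEM173 (STING), the adaptor of cytosolic DNA sensing, rose by 2.13 ± 0.08 and DDX58 (RIG-I), an RNA sensor, by 1.99 ± 0.07. TLR3, the endosomal receptor of double-stranded RNA, was nearly absent from the unsorted culture at 0.0405 ± 0.0384 CPM and was at 1.82 ± 0.219 CPM in PD-L1 high cells. It had 3 reads over the 3 unsorted and 96 over the 3 PD-L1 high libraries. It passed the filter on low counts only through the latter. The sensing list thus moved in 1 direction where it moved, and TICAM1, an adaptor of TLR3, was among the members short of the threshold, at a log2 fold change of 0.08.

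Of 24 NF-kB subunits, targets and cytokines 21 were higher and none lower (1 without the second PD-L1 high library), with a median of 1.40. The chemokine genes CX3CL1, CXCL10 and CXCL11, which attract T cells and NK cells, rose by 3.45, 2.91 and 2.76 from low levels of 0.585, 0.469 and 1.004 CPM. CX3CL1 and CXCL10 passed the filter on low counts only through the PD-L1 high libraries. CCL2, a monocyte chemokine, was at 32.4, 31.3 and 32.0 against 113, 110.0 and 105 CPM. CXCL8, a neutrophil chemokine, and IL1B did not pass the test, with log2 fold changes of -0.23 ± 0.15 and 0.25 ± 0.14 (adjusted p = 0.196 and 0.112, edgeR). Without the second PD-L1 high library CXCL8 was lower by 0.40 on the log2 scale (adjusted p = 0.043). IL1B was at 7.62 ± 0.953 CPM in the unsorted and 8.98 ± 0.895 CPM in the PD-L1 high libraries but at 0.0482 CPM in PD-L1 low cells.

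Among 16 checkpoint and NK cell ligand genes other than CD274, 13 were higher and 3 lower, with a median of 1.62. IDO1, which depletes tryptophan around T cells, was at 2.34, 3.13 and 3.06 against 36.5, 34.7 and 34.1 CPM, and PDCD1LG2 (PD-L2), the other PD-1 ligand, rose by 1.80 ± 0.14. LGALS9, a ligand of TIM-3, rose by 3.07 ± 0.13 and CD276 (B7-H3) by 1.80 ± 0.08. MICB, a ligand of the NK cell receptor NKG2D, fell from 9.79 ± 0.549 to 2.29 ± 0.293 CPM (log2 fold change -2.07 ± 0.15). MICA, another ligand of that receptor, had 2 reads over the 3 unsorted and 34 over the 3 PD-L1 high libraries and passed the filter on low counts only through the latter. MICA and MICB are close relatives, so reads may be split between them. NCR3LG1, a ligand of the NK receptor NKp30, fell by 0.60 and CD47, a signal against phagocytosis, by 0.38. Of 12 complement genes 10 rose and 2 fell. CFB, a protease of the alternative pathway, rose by 3.37 ± 0.18, and SERPING1, the C1 inhibitor, fell by 1.41 ± 0.21.

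**Figure D3:**
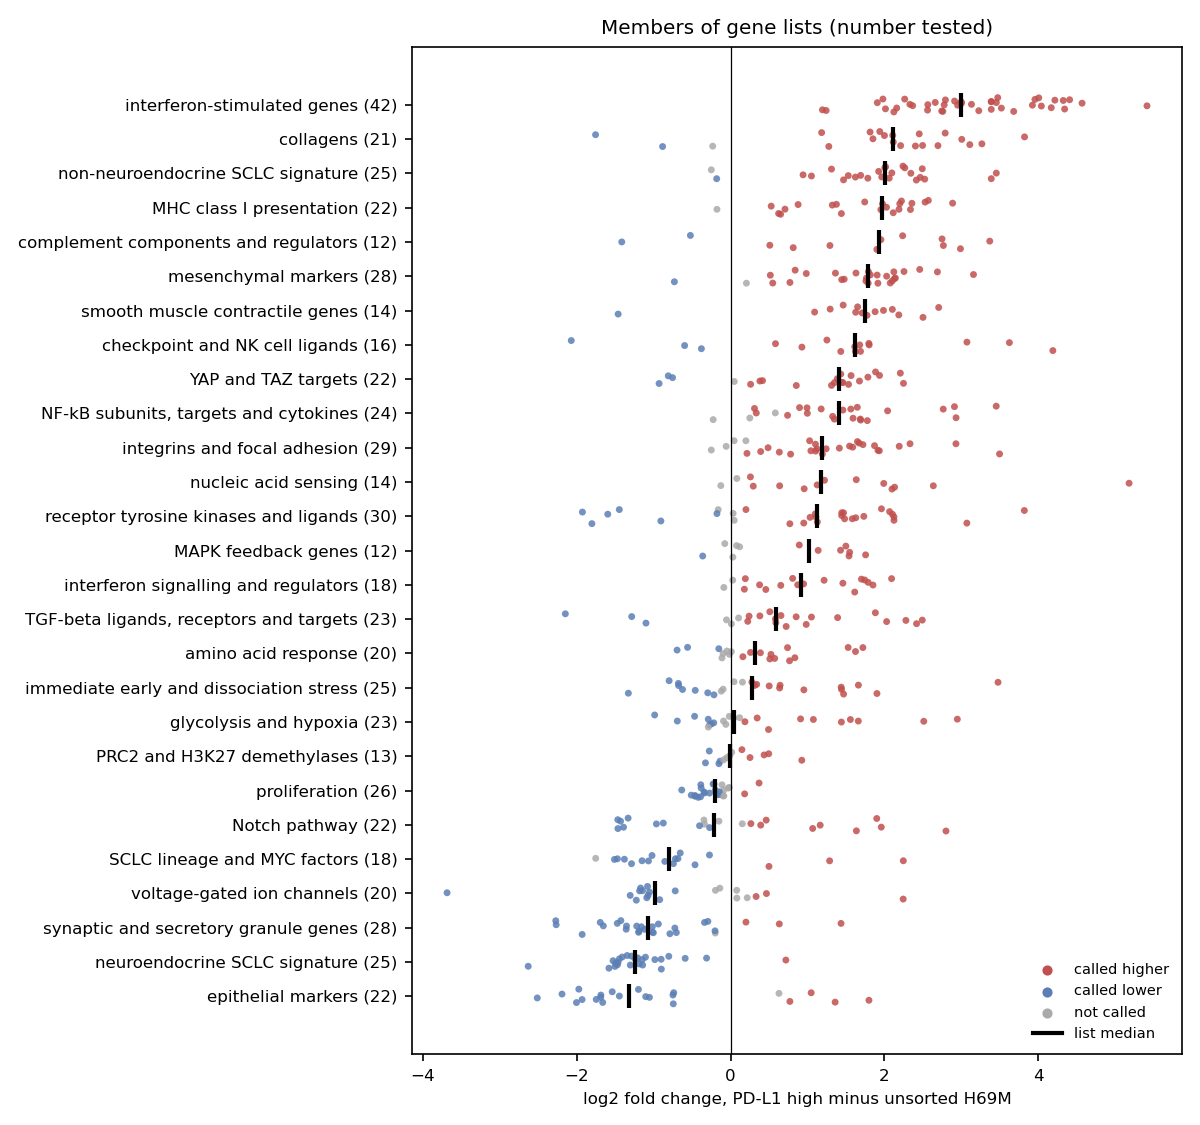
Log2 fold change of PD-L1 high minus unsorted H69M (x axis) for the tested members of 27 gene lists (rows, number tested in brackets). Each point is a gene, red if called higher, blue if lower and grey if neither, and the black bar is the list's median. Medians run from 3.00 for interferon-stimulated genes to -1.32 for epithelial markers.

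The neuroendocrine program was lower in PD-L1 high cells but far from absent. Of 25 genes of the neuroendocrine SCLC signature 24 fell, 18 at least 2-fold, with a median of -1.24. INSM1, a zinc finger factor of neuroendocrine cells, was at 1677, 1679 and 1680 CPM in the unsorted libraries and at 694, 706 and 663 CPM in PD-L1 high. CHGA, a secretory granule protein, fell by 1.53 ± 0.05, SYP, a synaptic vesicle protein, by 1.34 ± 0.07 and NCAM1 (CD56), an adhesion molecule, by 1.22 ± 0.05. The groups did not overlap for any of the 4 genes, which was also so for 73.7% of all tested genes. TMSB15A was the member that rose, from 2.14 ± 0.452 to 3.51 ± 0.372 CPM, and it is nearly identical to TMSB15B, so its count is uncertain.

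The wider neuronal machinery went the same way. Of 28 synaptic and granule genes 24 fell and 3 rose (median -1.07), and of 20 voltage-gated ion channel genes 12 fell and 3 rose (median -0.99). GRP, the bombesin-like growth factor of SCLC, was at 27.5, 25.7 and 24.8 against 7.64, 8.28 and 9.004 CPM, and PCSK2, a prohormone convertase, fell by 1.69. PTPRN, a granule membrane protein, rose instead from 33.0 ± 1.42 to 89.1 ± 5.45 CPM. Of 18 lineage and MYC family factors 14 fell and 3 rose, the latter being REST, MYC and NFIB. NKX2-1 and FOXA2, factors of lung and foregut endoderm, fell by 1.38 ± 0.06 and 1.51 ± 0.06. MYCN was at 917, 936 and 903 against 439, 436 and 441 CPM, while MYC rose from 7.36 ± 0.586 to 17.9 ± 0.231 CPM.

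Genes of non-neuroendocrine SCLC were the counterpart. Of 25 members of that signature 23 rose and 1 fell, with a median of 2.00. YAP1, the coactivator of the Hippo pathway, was at 47.8, 40.9 and 51.2 CPM in unsorted and at 205, 182 and 179.9 CPM in PD-L1 high libraries (log2 fold change 2.01 ± 0.08, adjusted p = 1.30e-13, edgeR). REST, the repressor of neuronal genes, was at 10.1, 9.30 and 10.4 against 48.5, 42.9 and 50.4 CPM. CAV1, a coat protein of caveolae, rose by 2.06 ± 0.14 and AXL, a receptor tyrosine kinase of non-neuroendocrine cells, by 1.44 ± 0.10. CCND1 (cyclin D1) was the member that fell, by 0.18 ± 0.07 (adjusted p = 0.0336, edgeR). Without the first unsorted, the third unsorted or the second PD-L1 high library the adjusted p of CCND1 was 0.0701, 0.0959 and 0.117, and no member was then called lower. Of 22 YAP and TAZ targets 18 rose and 3 fell (median 1.41). WWTR1 (TAZ) rose by 2.25 ± 0.09, the matricellular CTGF and CYR61 by 1.39 (adjusted p = 0.0777 by DESeq2) and 1.31 and ANKRD1 by 0.85, while AMOTL1 fell by 0.75.

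Mesenchymal and matrix genes rose and epithelial genes fell. Of 28 mesenchymal markers 26 rose and 1 fell (median 1.79), and of 21 collagens 18 rose and 2 fell (median 2.11). VIM, the mesenchymal intermediate filament, was at 465, 462 and 450.0 CPM in unsorted and at 1707, 1769 and 1680 CPM in PD-L1 high libraries (log2 fold change 1.90 ± 0.12). COL1A1, a chain of type I collagen, was at 1217, 1236 and 1358 against 5589, 5998 and 6045 CPM. PRRX1, a mesenchymal homeobox factor, stood at 26.7 ± 0.646 and 238 ± 3.71 CPM, and COL11A1 and COL3A1 rose by 3.82 ± 0.10 and 3.27 ± 0.07. Matrix genes were not uniform: POSTN (periostin) fell from 555 ± 27.3 to 334 ± 1.11 CPM and the basement membrane chain COL4A6 by 1.75 ± 0.07.

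Of 29 integrin, laminin and focal adhesion genes 25 rose and none fell (1 with library totals in place of TMM, median 1.19), and of 14 smooth muscle contractile genes 13 rose. ITGA5, the fibronectin receptor subunit, was at 506, 527 and 532 against 1991, 1996 and 1915 CPM, and ACTA2, smooth muscle actin, rose by 2.19 ± 0.17. MYH11, the heavy chain of mature smooth muscle myosin, fell instead by 1.46 ± 0.13. Of 22 epithelial markers 17 fell and 4 rose (median -1.32). CDH1 (E-cadherin) was at 51.2, 52.2 and 52.3 against 15.1, 11.5 and 11.96 CPM (log2 fold change -2.003 ± 0.083), and EPCAM fell by 1.54 ± 0.06 and the epithelial factor ELF3 by 1.93 ± 0.06. The 4 risers were CDH3 (P-cadherin), KRT7, KRT8 and KRT18, with log2 fold changes of 1.80, 0.77, 1.05 and 1.36, while the keratin gene KRT19 fell.

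Growth factor receptor genes went both ways. Of 30 receptor tyrosine kinases and ligands 21 rose and 6 fell (median 1.12). PDGFRA was at 1.98, 1.94 and 1.80 CPM in unsorted and at 28.1, 26.3 and 26.0 CPM in PD-L1 high libraries, and EGFR and MET rose by 1.73 ± 0.07 and 1.44 ± 0.06. KIT, the stem cell factor receptor found on many SCLC, was at 216, 220.4 and 218 against 63.6, 62.6 and 61.2 CPM, and ERBB3 and ERBB4 fell by 1.93 and 1.60. Feedback genes of the MAPK pathway were higher for 7 of 12 and lower for 1 (median 1.02), among them DUSP6, a phosphatase of ERK, at 10.7 ± 0.828 against 30.1 ± 0.0912 CPM. Of 23 TGF-beta genes 17 rose and 3 fell (median 0.59), with the ligand gene TGFB1 at 51.2, 63.8 and 59.9 against 265, 302 and 281 CPM and BMP7 down by 2.15 ± 0.21.

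Of 22 Notch pathway genes 9 were higher and 9 lower, 40.9% each (median -0.21). These shares were near those of all tested genes, 37.8% higher and 32.6% lower, so the counts say little about the pathway. NOTCH3 was at 19.2, 25.1 and 26.4 against 163, 166 and 164 CPM, NOTCH1 rose by 1.96 ± 0.09 and the ligand JAG1 by 1.90 ± 0.05. DLL3, an inhibitory ligand of neuroendocrine tumours, fell by 1.33 ± 0.07 and HES6, an antagonist of HES1, by 1.46 ± 0.06. HES1, a direct Notch target, rose by 0.46 ± 0.06, less than the receptors.

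Cell cycle genes differed little in size. Of 26 proliferation genes 17 fell and 2 rose, TYMS and CCNE1, with a median of -0.21. The call of CCNE1 (cyclin E1) was lost without any 1 of 4 libraries, the second and the third unsorted and the first and the third PD-L1 high (adjusted p = 0.0519, 0.213, 0.392 and 0.118, edgeR). The range ran from -0.63 for E2F1 to 0.37 for TYMS. MKI67, the common marker of cycling cells, was at 340.1, 413 and 402 against 319, 373 and 356 CPM, with overlapping groups (log2 fold change -0.14 ± 0.08, adjusted p = 0.120, edgeR). Without the first unsorted library, and with library totals, MKI67 was called lower, with a log2 fold change of -0.22 in both (adjusted p = 0.0178 and 0.0187). CDK6 rose by 1.68 ± 0.07. EZH2, the methyltransferase of the Polycomb complex PRC2, was at 237, 251 and 229 against 217, 217 and 217 CPM (log2 fold change -0.14 ± 0.05, adjusted p = 0.0137), and without the second unsorted library its adjusted p was 0.0882. Of the 13 PRC2 and demethylase genes 5 rose (38.5%) and 4 fell (30.8%), near the 37.8% and 32.6% of all tested genes. The number that rose was 3 without the second unsorted, the first PD-L1 high or the third PD-L1 high library. The median of the PRC2 list, -0.01, changed sign with the scaling. So did those of 13 D cyclin and CDK inhibitor genes (0.07) and 23 glycolysis and hypoxia genes (0.04).

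Setting the unsorted culture between its fractions showed how far each gene's level lay toward either side. The position is 0% where unsorted H69M equals the PD-L1 low level and 100% where it equals the PD-L1 high level, computed for genes at least 4-fold apart between the fractions and at 5 CPM or more in the higher one. Since the comparisons share libraries, it is a description without a test. For the 1071 genes higher in PD-L1 high cells the median position was 20.3% (20.02, 20.42 and 20.29% in the 3 unsorted libraries), with quartiles of 13.7 and 25.8%. For the 370 genes lower in PD-L1 high cells it was 73.6% (76.3, 69.6 and 72.7%), with quartiles of 55.2 and 87.5%. On this linear CPM scale the culture was therefore nearer to the PD-L1 low level for most of the first set. It was nearer to the PD-L1 high level for most of the second. By ratio a gene can lie nearer to the other fraction. VIM was at 459 CPM in unsorted, 23.7 CPM in PD-L1 low and 1719 CPM in PD-L1 high cells. The number of genes for which this holds was not counted.

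Gene groups sat at different places on this scale. The median position was 8.15% for 39 interferon-stimulated genes, 17.9% for 14 MHC class I genes, 19.6% for 15 collagens, 23.5% each for 21 non-neuroendocrine and 20 mesenchymal genes and 32.9% for 15 YAP and TAZ targets. MX1 was at 5.03%, B2M at 17.6%, VIM at 25.7%, AXL at 36.2% and ANKRD1 at 54.6%. The interferon-stimulated genes ranged from -4.73 to 17.1%, so each of them lay below the median of the 1071 genes. Of 20 genes of the amino acid response, which cells raise when amino acids run short, 7 met the limits for a position. These 7 lay at the other end, with a median of 99.9% and a range of 94.4 to 109%. Of them, DDIT4 and ASNS belong to the set lower in PD-L1 high cells, whose median was 73.6%. SLC7A11, VLDLR and ADM2 of the same list had no position and were lower in unsorted H69M than in either fraction. DDIT4, an inhibitor of mTORC1, was at 1014 ± 100.2 CPM in the PD-L1 low fraction but at 133, 131 and 142 CPM in unsorted and at 99.5, 78.6 and 72.4 CPM in PD-L1 high cells. ASNS, asparagine synthetase, was at 812 ± 18.8, 109.9 ± 3.21 and 98.6 ± 9.55 CPM in the same order. H19, an imprinted noncoding RNA, followed the same order with 248 ± 58.0, 20.6 ± 0.703 and 10.9 ± 1.30 CPM. For these genes the PD-L1 low cells stood apart from both other groups.

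**Figure D4:**
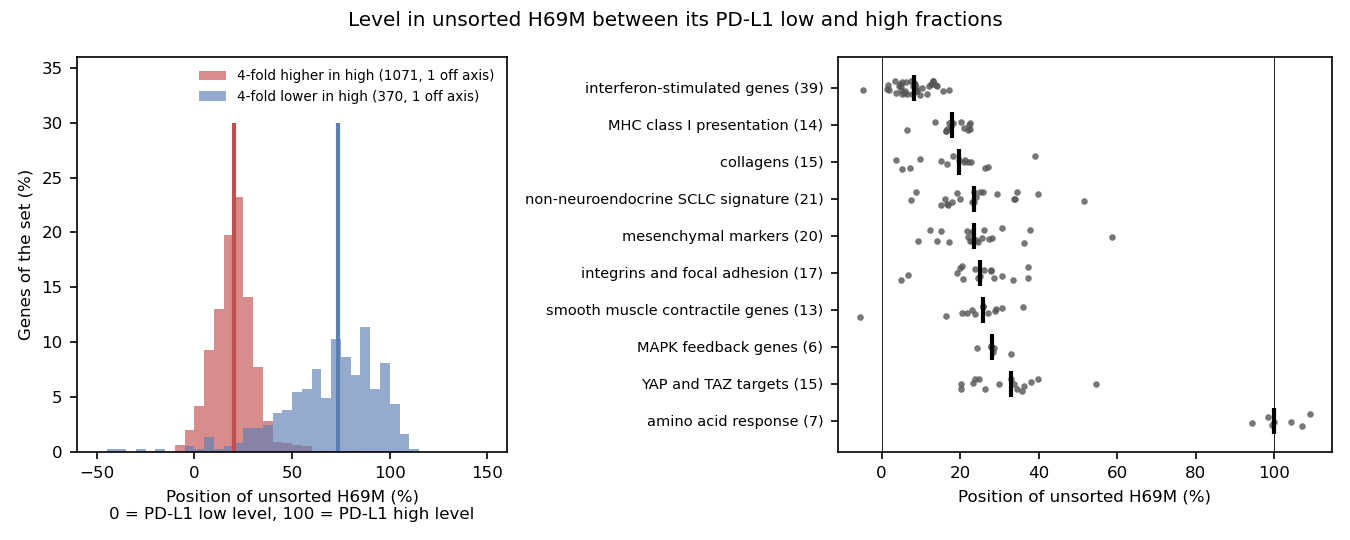
Position of unsorted H69M, on linear CPM, between its PD-L1 low (0%) and PD-L1 high (100%) fractions. Left, share of genes (y axis, percent of the set) by position (x axis) for the 1071 genes at least 4-fold higher (red) and the 370 at least 4-fold lower (blue) in PD-L1 high than low cells, with lines at the medians of 20.3 and 73.6%. Right, those members of 10 lists that met the limits for a position (points) with their medians (bars), from 8.15% for interferon-stimulated genes to 99.9% for 7 of 20 amino acid response genes.

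Some genes in the unsorted culture lay outside both fractions, which shows that its levels were not always between theirs. Among called genes at or above the median level of all tested genes, the 4 farthest above were SLC18A1, ENPP2, KRT19 and C1orf116. SLC18A1, a vesicular monoamine transporter, was at 41.4, 36.6 and 38.3 CPM in unsorted cells against 10.3 ± 0.306 in PD-L1 low and 10.2 ± 0.639 in PD-L1 high cells, and ENPP2, which makes lysophosphatidic acid, at 21.0 ± 0.968 against 7.18 ± 0.846 and 4.08 ± 0.378 CPM. The 4 farthest below under the same limit were BHLHE40, ASS1, SLC1A5 and SLC7A11. SLC1A5, a glutamine transporter, was at 58.4, 63.4 and 58.9 CPM in unsorted cells against 216 ± 12.5 in PD-L1 low and 208 ± 10.8 in PD-L1 high cells. ASS1, an enzyme of arginine synthesis, was at 18.0 ± 0.308 against 148 ± 6.04 and 97.6 ± 3.02 CPM, and the cystine transporter SLC7A11 at 13.9 ± 2.25 against 95.1 ± 14.3 and 45.9 ± 4.36 CPM. For these 8 genes both sorted fractions fell on the same side of the unsorted culture. The part of sort handling, or of a difference of culture, in this was not tested.

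**Figure D5:**
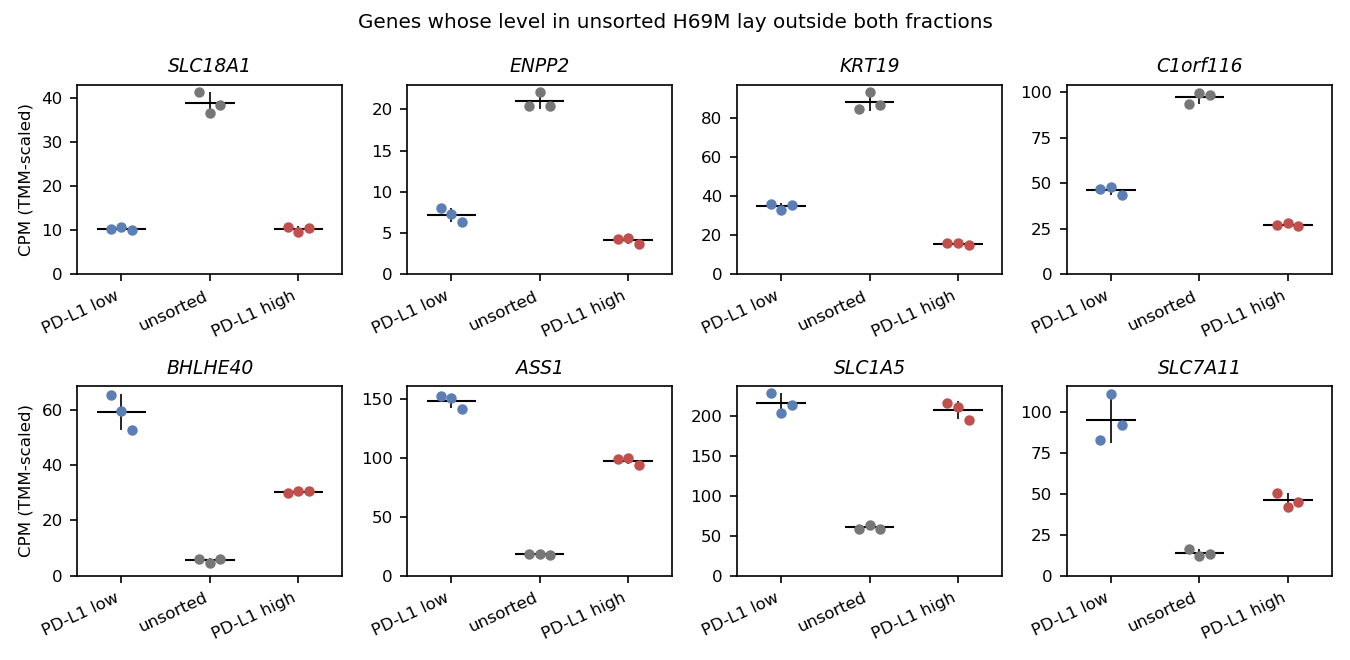
Levels in CPM after TMM scaling (y axes, each from 0) of the 4 genes farthest above (top row) and the 4 farthest below (bottom row) both PD-L1 fractions in unsorted H69M, among called genes at or above the median level. Points are libraries, horizontal bars means and vertical bars SD (n = 3 each); SLC1A5 is at about the same level in both fractions and lower in the unsorted culture.

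Genes that respond to cell dissociation gave no single direction between PD-L1 high and unsorted cells. Of 25 tested immediate early and stress genes 13 rose (52%) and 8 fell (32%), beside 37.8% and 32.6% of all tested genes. The list's median was 0.28, and its summed level was 7851 to 8081 CPM in unsorted and 5797 to 5976 CPM in PD-L1 high libraries. EGR1 rose from 2.14 ± 0.523 to 5.93 ± 0.284 CPM, JUN fell from 122 ± 3.29 to 76.0 ± 1.94 CPM and BTG2 fell by 1.33 ± 0.07. The part of these genes' response in the other differences was not tested.

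Markers of other cell types were read in the same libraries. All 9 fibroblast markers rose, with summed levels of 2521 to 2811 CPM in unsorted and 11210 to 11500 CPM in PD-L1 high libraries, most of it collagen. FAP and LUM were at 10.01 ± 1.47 and 23.1 ± 2.40 against 43.1 ± 1.53 and 101 ± 7.66 CPM, and DCN (decorin), a defining fibroblast gene, was at 0.227 ± 0.113 against 1.503 ± 0.182 CPM. Of 8 leukocyte markers 4 were tested and 3 rose (1 at a minimum count of 100), the list summing to 4.86 to 4.99 against 10.6 to 11.4 CPM. PTPRC (CD45) was at 0.1004 against 0.4101 CPM with overlapping groups and was not tested with only the 2 groups in the filter, and CD3E had no read in either group. Of 7 endothelial markers 6 were tested, of which 4 rose (1 at a minimum count of 100) and 1 fell (2 without the second PD-L1 high library), with sums of 32.6 to 32.8 against 62.4 to 68.1 CPM and PECAM1 at 13 and 5 reads over the groups. The part of such cells in the other differences was not tested.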

How the data were processed

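RNA was isolated with a column kit and libraries were made from 250 ng of total RNA by exome capture and sequenced on a NextSeq 500, per the labels' protocols. The deposited table holds whole-number read counts per gene, and the submitters' processing notes name STAR 2.6.1 with genome builds hg19 and mm10. Which program counted the reads, on which annotation and whether by strand is not stated, which leaves overlapping and antisense genes uncertain. The table lists 25435 genes, of which 21997 symbols matched the reference names.

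The 12 libraries of the table (4 groups of 3) were fitted together with edgeR 4.0.16 (R 4.3.3), using TMM factors, filterByExpr at a minimum count of 10 and the quasi-likelihood F-test, with 8 residual degrees of freedom and a two-sided contrast. A call is an adjusted p under 0.05 (Benjamini-Hochberg over all 15445 genes), and the SE is the log2 fold change over the square root of F. Some list members passed the filter only through the PD-L1 high libraries, HLA-F, TLR3, MICA, COL4A1 and EGR3 among them. Their calls as higher, which enter the list counts, are not independent of that filter. The common biological coefficient of variation was 0.0540. Alternatives used limma 3.58.1 and DESeq2 1.42.0. Replicate numbers were not used to pair libraries in the main fit, as correlations of same-numbered deviations were 0.0758, 0.067 and 0.0324, all under a set minimum of 0.1. Those of differently numbered libraries ran from -0.0611 to -0.00335, so a weak pairing is not excluded.

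The comparison, the gene lists and the named panel were chosen with earlier results of these data known, so no pattern here is independent support for those. Named genes were a panel of sort, MHC class I, lineage and Polycomb genes, the 10 largest rises and falls among called genes at or above the median level with groups that do not overlap, leading or described members of lists, and, at the same level limit, the 4 called genes farthest above and below both fractions. Promoters come from RefSeq (GRCh38.p14), a build other than that of the counts. Some genes of the panel and lists are counted but not reported singly here. The other tables of the series were not used here.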

Additional observations from a re-analysis of the deposited data

How the results depend on the processing

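Calls were recomputed under 14 alternatives: other scalings, filters and tests, only the groups compared, the replicate block and each library left out. Their number ran from 9363 to 11348 beside 10873. No named gene called in the main fit or in an alternative changed direction between the 2. The direction of genes called in neither was not followed. The replicate block gave 10634 calls, 10614 of them shared with the fit without it, and moved no count over all genes by over 1.5 times; each library correlated best with its own number, which is a hint from the data and not from the design. Genes called at least 2-fold higher numbered 1488 at a minimum count of 100, with 12559 genes tested, against 2318. The position of the genes higher in PD-L1 high cells was 20.02% with DESeq2 size factors, 21.42% with library totals, 21.12% for genes at least 16-fold apart, 21.23% at 50 CPM or more and 20.17 to 21.02% with each library left out. That of the lower genes was 94.65% at 16-fold (16 genes) and 62.44% at 50 CPM (69 genes), so it depended on which genes entered. Of the counts of list members 43 moved by over 1.5 times and 881 did not.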

Other observations

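Of 23 glycolysis and hypoxia genes 10 rose (43.5%) and 7 fell (30.4%) in PD-L1 high cells, near the 37.8% and 32.6% of all tested genes. CA9, a carbonic anhydrase induced by low oxygen, was at 1.30, 0.896 and 1.11 CPM in unsorted and at 11.2, 7.26 and 6.89 CPM in PD-L1 high libraries, and the PD-L1 low fraction averaged 17.1 ± 2.13 CPM. VEGFA, an angiogenic growth factor, had the same order, with 46.2 ± 5.43 CPM unsorted, 146 ± 10.1 in PD-L1 high and 198 ± 8.83 in PD-L1 low cells. EGLN3, an oxygen sensor, was instead highest in PD-L1 high cells (5.08 ± 0.413, 29.0 ± 1.51 and 2.01 ± 0.150 CPM in the same order). ENO2, the neuronal enolase, fell by 0.99 ± 0.05.

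Of 20 amino acid response genes 12 rose and 3 fell between unsorted and PD-L1 high cells, and 5 fell with library totals or without the first PD-L1 high library. VLDLR, a lipoprotein receptor, rose by 1.62 ± 0.07, and SLC7A5, a leucine transporter, stood at 135, 163 and 152 against 275, 281 and 247 CPM. ATF4, the factor that drives this response, differed by -0.10 ± 0.05 on the log2 scale, short of the threshold (edgeR, adjusted p = 0.0981), but passed it without the first PD-L1 high library (-0.16, adjusted p = 0.0216) and with library totals (-0.18, adjusted p = 0.00187). Of 13 D cyclin and CDK inhibitor genes 5 rose (38.5%) and 4 fell (30.8%), near the 37.8% and 32.6% of all tested genes. The neighbouring inhibitor genes CDKN2A and CDKN2B rose by 0.61 ± 0.08 and 1.31 ± 0.09, and CDKN2D fell by 0.54 ± 0.06.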
